A study of Mus musculus with 36 samples.

Results

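The 32 genes described here are type I interferon-stimulated genes, that is, genes whose transcription rises in cells exposed to interferon alpha or beta. They were chosen by symbol, as antiviral effectors, sensors of foreign nucleic acid and factors of the interferon response, and all 32 were among the 36066 genes of the deposited table. The choice was made with earlier results of these data known, so counts of members may not be independent of those results. RNA had been sequenced from the whole liver of 36 mice aged 4 months, 3 in each of 12 groups. Gulo-/- mice lack L-gulonolactone oxidase, which completes the synthesis of ascorbate, and depend on ascorbate in the drinking water. For females (F) and males (M) alike, the groups were Gulo-/- mice given 0.4% ascorbate until the age of 3 months and none for the last 4 weeks (FGL00 and MGL00), Gulo-/- mice on 0.01% (FGL01 and MGL01), 0.05% (FGL05 and MGL05) or 0.4% ascorbate (FGL40 and MGL40) from weaning on, Gulo-/- mice on 0.4% ascorbate whose supply was withdrawn for 1 month and then restored at 0.4% (FGLR40 and MGLR40), and wild type Gulo+/+ mice that made their own ascorbate and received none (FWT00 and MWT00). The deletion is present in every cell of the animal, mice were fasted overnight before sampling, and each value comes from 1 mouse. A mouse is named by its group and animal number.

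Type I interferons bind the *Ifnar1* and *Ifnar2* receptor chains, whose kinases *Jak1* and *Tyk2* phosphorylate STAT proteins, among them *Stat2*. *Stat2* and *Irf9* are parts of the factor ISGF3, which binds the interferon-stimulated response element, a short DNA sequence near the start of target genes. The products of these genes detect foreign RNA and DNA, block steps of viral growth, or adjust the response itself, and a low level of many of them is present in tissues without infection.

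Promoters are shown first because they are where the element would lie. Windows from 250 bases before to 50 bases after the annotated start were available for 22 of the 32 genes. They came from a set of RefSeq (GRCm38.p6) promoters that held no window for *Usp18*, *Zbp1*, *Dhx58*, *Oas2*, *Mx1*, *Mx2*, *Ifi27*, *Rtp4*, *Parp9* and *Parp14*, although these genes have RefSeq positions. The core of the element, GAAA followed after any 2 bases by a second GAAA and read on either strand (overlapping matches counted), was found in the windows of 12 of these 22 genes (54.5%), against 3.99% of all 27025 genes with windows of the same length (3.44% of 32851 windows). The 12 genes were *Stat2*, *Ifih1*, *Ifit1*, *Ifit3*, *Ifit3b*, *Oas1a*, *Oas1g*, *Oas3*, *Isg15*, *Rsad2*, *Bst2* and *Trim30a*. The letters TTCNNNGAA of the gamma-activated site, a palindromic element of the interferon gamma response, stood in the windows of 4 genes (18.2%; *Ifit2*, *Oas1a*, *Bst2* and *Ifi35*), against 9.55% of all genes (8.3% of windows). In *Bst2* the 2 kinds of match overlapped. A match is a description of letters, and these windows were not assayed here.

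The lines below give 100 bases upstream of the start, 5′ to 3′ on the strand of the gene, for 7 of the 12 genes with a match, picked after the matches were seen to show repeated matches and the near-identical pairs, with each match to this core or its reverse complement in capitals (overlapping matches run together).
Isg15 (chr4:156200827-156200926, minus strand): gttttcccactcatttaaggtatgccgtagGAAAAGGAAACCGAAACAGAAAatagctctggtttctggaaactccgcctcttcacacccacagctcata
Ifit1 (chr19:34640755-34640854, plus strand): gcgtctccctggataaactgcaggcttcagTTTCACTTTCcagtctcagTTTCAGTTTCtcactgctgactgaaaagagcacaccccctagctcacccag
Ifit3 (chr19:34583343-34583442, plus strand): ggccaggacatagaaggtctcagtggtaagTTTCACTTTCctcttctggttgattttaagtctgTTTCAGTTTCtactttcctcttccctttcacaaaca
Ifit3b (chr19:34607739-34607838, plus strand): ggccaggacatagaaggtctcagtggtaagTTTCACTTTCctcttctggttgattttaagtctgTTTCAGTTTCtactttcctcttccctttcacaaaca
Oas1a (chr5:120907526-120907625, minus strand): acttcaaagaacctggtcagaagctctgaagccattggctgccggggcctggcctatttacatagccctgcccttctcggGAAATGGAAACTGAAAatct
Oas1g (chr5:120887614-120887713, minus strand): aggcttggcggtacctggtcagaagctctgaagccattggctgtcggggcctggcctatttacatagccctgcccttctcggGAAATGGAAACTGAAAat
Rsad2 (chr12:26456503-26456602, minus strand): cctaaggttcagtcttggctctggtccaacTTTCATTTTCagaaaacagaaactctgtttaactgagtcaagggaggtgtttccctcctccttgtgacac

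*Isg15* carried 3 overlapping matches, whose first bases lay 78, 72 and 66 bases before its start, and *Ifit1* carried 2 that were separated by 9 bases. The paired genes were near-identical here. Over 80 bases around the first match, *Ifit3* and *Ifit3b* had the same base at 80 positions, and *Oas1a* and *Oas1g* at 79. Their transcripts were also alike, with 61.8% of the 31-base words of *Ifit3* and 68.8% of those of *Oas1a* shared with another gene, almost all with *Ifit3b* and *Oas1g*. The pseudoalignment may therefore have divided reads between *Ifit3* and *Ifit3b* and between *Oas1a* and *Oas1g*, and the value of either copy alone is uncertain.

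**Figure D1:**
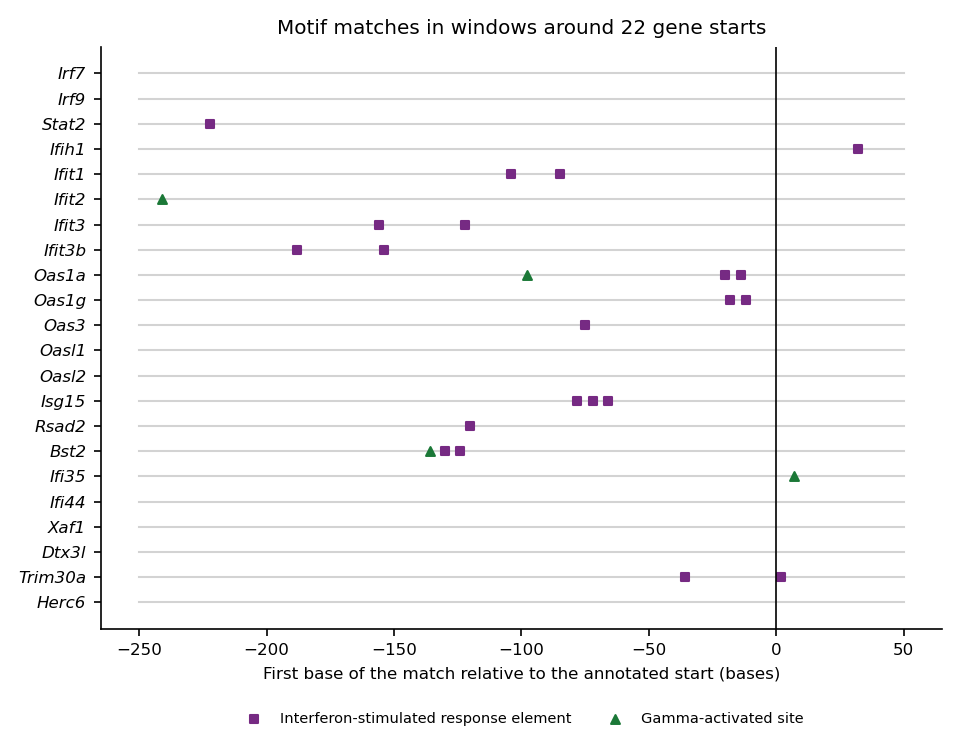
Matches to the interferon-stimulated response element (squares) and the gamma-activated site (triangles) in the windows of 22 interferon-stimulated genes, one grey line per gene, with the position of the first base of the match relative to the annotated start on the horizontal axis in bases. Squares stand on 12 of the 22 lines and triangles on 4. *Trim30a* has windows at 2 starts.

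The 32 transcripts were all above 0 TPM in all 36 livers, but their levels covered a wide range. TPM, the deposited unit, scales reads by transcript length and library total, so levels can be compared between genes. *Bst2* (tetherin, which holds budding virions at the cell surface) was the most abundant, with a mean of 136.9 TPM over the 36 mice, followed by *Ifi27* (84.7 TPM), *Stat2* (53.0 TPM) and *Parp9* (26.3 TPM). In all, 11 members had a mean of at least 10 TPM and 9 a mean under 5 TPM, the lowest being *Oas3* (0.903 TPM).

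Of the whole series, *Gulo* itself had 225 to 269 TPM in wild type females, 144 to 164 TPM in wild type males and 16.4 to 52.2 TPM in the 30 Gulo-/- mice, so that transcripts were still counted from the disrupted gene. Between 18701 and 20093 genes were above 0 TPM in a mouse. The Y-linked gene *Ddx3y* followed the sex labels in every mouse (15.1 to 29.1 TPM in males, at most 0.875 TPM in females), also in MGLR40-2831, whose title words call it female while its animal name and sex label say male. FGL40-2695 stood apart by summed transcripts of the exocrine pancreas of 11605 TPM, and without it limma called 26 members in FGL00 over FGL40, 16 in FGL01 over FGL40, 27 for the interaction of sex with GL00 over GL40 and 0 in the comparisons of FGL05, FGLR40 and FWT00 with FGL40. Here and below, the shares of all genes called with a mouse left out or with another setting are not given. Such counts of members cannot be set against them. In liver homogenates, fewer cells of a type and less RNA per cell cannot be told apart.

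Withdrawal of ascorbate in females was accompanied by lower levels of most interferon-stimulated genes. In FGL00 over FGL40, 27 of the 32 members were lower and none was higher (limma on log2(TPM + 1), Benjamini-Hochberg adjusted p under 0.05 over 18050 genes), while 13.7% of all genes tested were called lower and 9.56% higher. The median log2 fold change of the members was -0.83, against -0.02 for all genes. The lower members were all 4 ISGF3 factors and regulators, 2 of 3 sensors, all 10 IFIT and OAS genes, 8 of 10 other effectors and 3 of 5 ubiquitin and ADP-ribose enzymes. For 28 members every FGL00 mouse lay below every FGL40 mouse, a pattern shown by 24.1% of all genes.

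**Figure D2:**
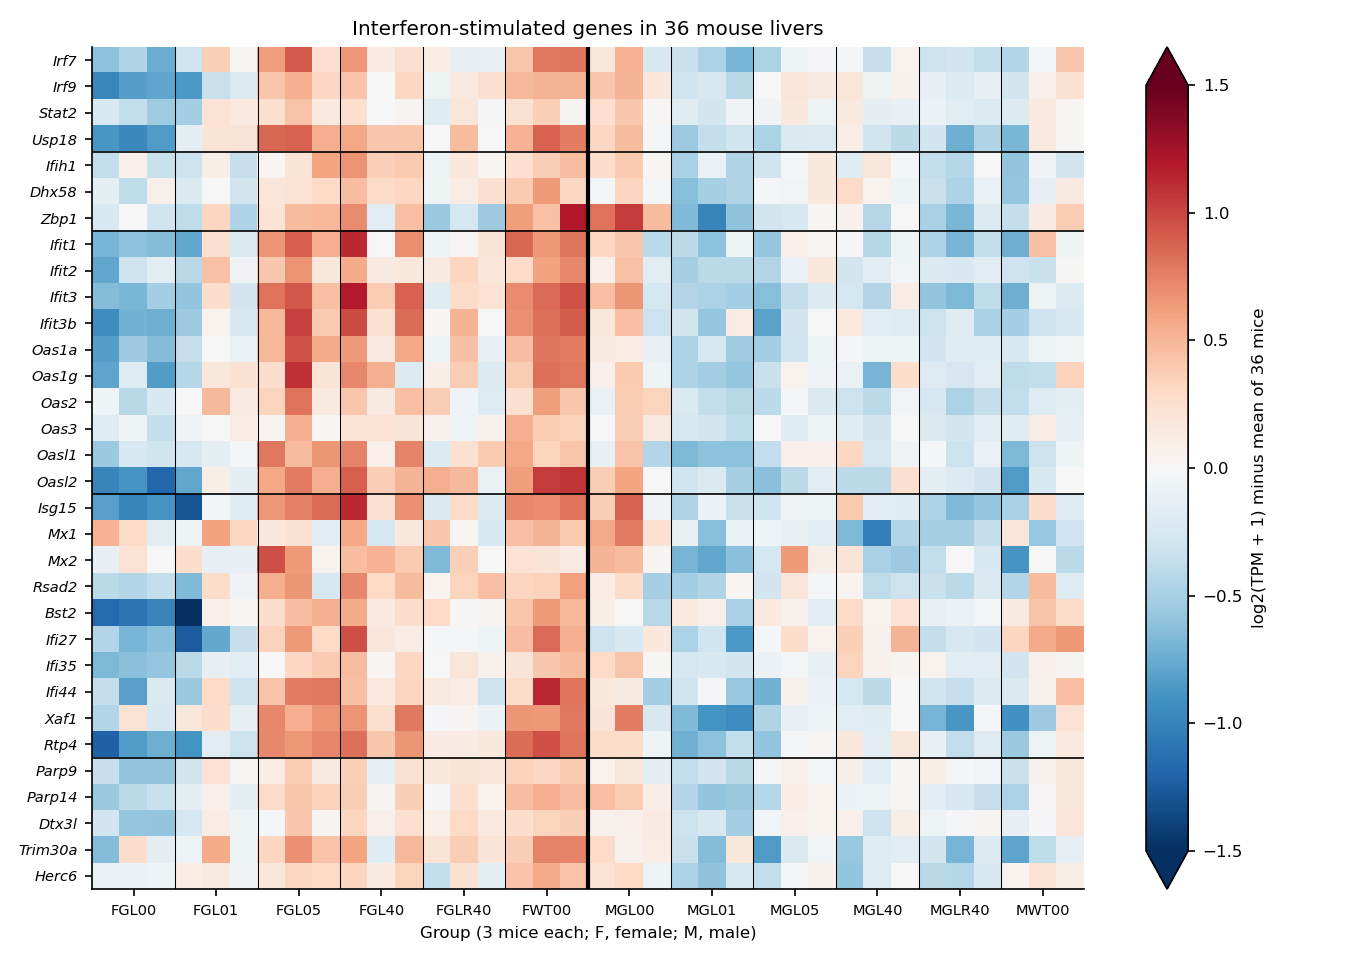
Levels of the 32 genes (rows, ordered by role and separated by horizontal lines) in each of the 36 mice (columns, in groups of 3 as labelled; females left of the thick line), as log2(TPM + 1) minus the mean of the gene over all mice; blue is below and red above that mean. The FGL00 columns are blue in nearly every row, with *Mx1* an exception, and the FGL05, FGL40 and FWT00 columns are mostly red.

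Among the factors that run the response, *Usp18* and *Irf9* showed the clearest separation. *Usp18*, a protease that removes *Isg15* from proteins and dampens signalling at the receptor, had 3.90, 3.57 and 3.95 TPM in FGL00 mice, against 12.4, 10.8 and 10.9 TPM in FGL40 mice (log2 fold change -1.36, SE 0.14, limma adjusted p = 3.2e-05). The groups were far apart. *Irf9*, the DNA-binding subunit of ISGF3, had 10.1, 11.4 and 11.7 TPM in FGL00, against 28.5, 21.0 and 26.3 TPM in FGL40 (-1.11, SE 0.15, adjusted p = 0.00015). *Irf7*, which drives the production of interferon alpha, had 15.7, 17.7 and 14.2 TPM in FGL00, against 38.9, 26.8 and 29.0 TPM in FGL40 (-0.94, SE 0.19, adjusted p = 0.0024). Again no FGL00 mouse reached the FGL40 range. *Stat2* changed least of the 4, with 44.4, 40.4 and 35.8 TPM in FGL00 and 62.2, 52.3 and 53.8 TPM in FGL40 (-0.47, SE 0.16), and its adjusted p was only just under 0.05 and above it under 10 of 15 alternative settings.

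The ubiquitin-like modifier *Isg15* and the membrane protein gene *Bst2* were among the effectors with the largest falls. *Isg15* had 6.92, 5.92 and 6.55 TPM in FGL00 mice, against 29.1, 15.2 and 21.4 TPM in FGL40 mice (log2 fold change -1.57, SE 0.27, limma adjusted p = 0.00074). The FGL00 mice were close together and the FGL40 mice spread more widely, without overlap. *Bst2* had 57.4, 59.6 and 64.4 TPM in FGL00 and 192, 143 and 157 TPM in FGL40 (-1.42, SE 0.29, adjusted p = 0.0028). *Rtp4*, a receptor transporter that is strongly induced by interferon, had 5.47, 7.39 and 7.98 TPM in FGL00 and 25.6, 18.9 and 22.8 TPM in FGL40 (-1.56, SE 0.16, adjusted p = 2.7e-05), the smallest adjusted p of the members in this comparison. *Ifi27* had 58.7, 49.1 and 51.5 TPM in FGL00, against 157, 90.1 and 86.3 TPM in FGL40 (-1.0, SE 0.22, adjusted p = 0.0042), and 1 FGL40 mouse was well above the other two. *Ifi35* had 10.6, 11.1 and 11.5 TPM in FGL00 and 24.6, 18 and 22.1 TPM in FGL40 (-0.89, SE 0.13). *Xaf1*, a binding partner of the apoptosis inhibitor *Xiap*, had 5.87, 9.89 and 6.91 TPM in FGL00 and 14, 10.1 and 15.1 TPM in FGL40 (-0.72, SE 0.16), with ranges that nearly met.

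The IFIT proteins bind foreign RNA, and the OAS enzymes make the oligoadenylates that activate RNase L. *Oasl2*, an OAS-like gene, had the lowest log2 fold change of the 32 with a pseudocount of 1, an order that changed with the pseudocount, with 1.83, 2.04 and 1.48 TPM in FGL00 and 9.45, 6.27 and 6.99 TPM in FGL40 (log2 fold change -1.61, SE 0.22, limma adjusted p = 0.00018). *Ifit3* had 6.09, 5.89 and 6.81 TPM in FGL00, against 24.3, 13.4 and 19.5 TPM in FGL40 (-1.43, SE 0.22), and its near copy *Ifit3b* had 0.683, 0.960 and 0.929 TPM in FGL00, against 5.33, 2.74 and 4.73 TPM in FGL40 (-1.47, SE 0.22). *Oas1a* had 0.792, 1.17 and 1.03 TPM in FGL00, against 3.92, 2.49 and 3.75 TPM in FGL40 (-1.12, SE 0.18). All 4 were separated without overlap. The other members of the families (*Ifit1*, *Ifit2*, *Oas1g*, *Oas2*, *Oas3* and *Oasl1*) had log2 fold changes between -1.26 and -0.41 and passed the test, of which *Oas2*, *Oas3*, *Oas1g* and *Ifit2* lost the call under 8, 5, 4 and 2 of 15 alternatives.

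*Parp9* and *Dtx3l* form a complex that modifies histones and viral proteins with ubiquitin, and *Parp14* transfers single ADP-ribose units. *Parp9* had 20.1, 16.8 and 16.8 TPM in FGL00, against 33.5, 23.7 and 30.5 TPM in FGL40 (log2 fold change -0.67, SE 0.13, limma adjusted p = 0.0021). *Dtx3l* had 11.9, 9.56 and 9.49 TPM in FGL00, against 18.7, 15.7 and 17.9 TPM in FGL40 (-0.70, SE 0.13). The partners thus had nearly equal changes. *Parp14* had 4.32, 4.94 and 5.25 TPM in FGL00, against 9.09, 7.10 and 9.13 TPM in FGL40 (-0.69, SE 0.11). Of the sensors, *Ifih1* (MDA5, which binds long double-stranded RNA) and its relative *Dhx58* had log2 fold changes of -0.69 and -0.50 and passed the test, and of the remaining effectors *Rsad2* (viperin) and *Ifi44* did too, with -0.90 and -0.77, *Ifi44* losing its call under 5 of 15 alternatives and *Rsad2* under 1.

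The 5 members that did not pass were *Herc6* (log2 fold change -0.35, limma adjusted p = 0.056), *Zbp1* (-0.51, adjusted p = 0.14), *Trim30a* (-0.48, adjusted p = 0.17), *Mx2* (-0.43, adjusted p = 0.21) and *Mx1* (0.05, adjusted p = 0.91). *Herc6* is the main ligase for *Isg15* in mice, *Zbp1* senses nucleic acids in the Z form, and *Mx1* and *Mx2* are GTPases that trap viral particles. *Mx1* had 5.73, 4.73 and 3.18 TPM in FGL00 and 5.99, 2.94 and 4.29 TPM in FGL40. These mice overlapped fully, and *Mx1* was the only member with a positive fold change in this comparison. Without FGL40-2695, *Zbp1* (-0.75, adjusted p = 0.040) and *Trim30a* (-0.72, adjusted p = 0.049) were called lower, and *Herc6* was called under 4 alternatives and *Mx2* under 1.

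**Figure D3:**
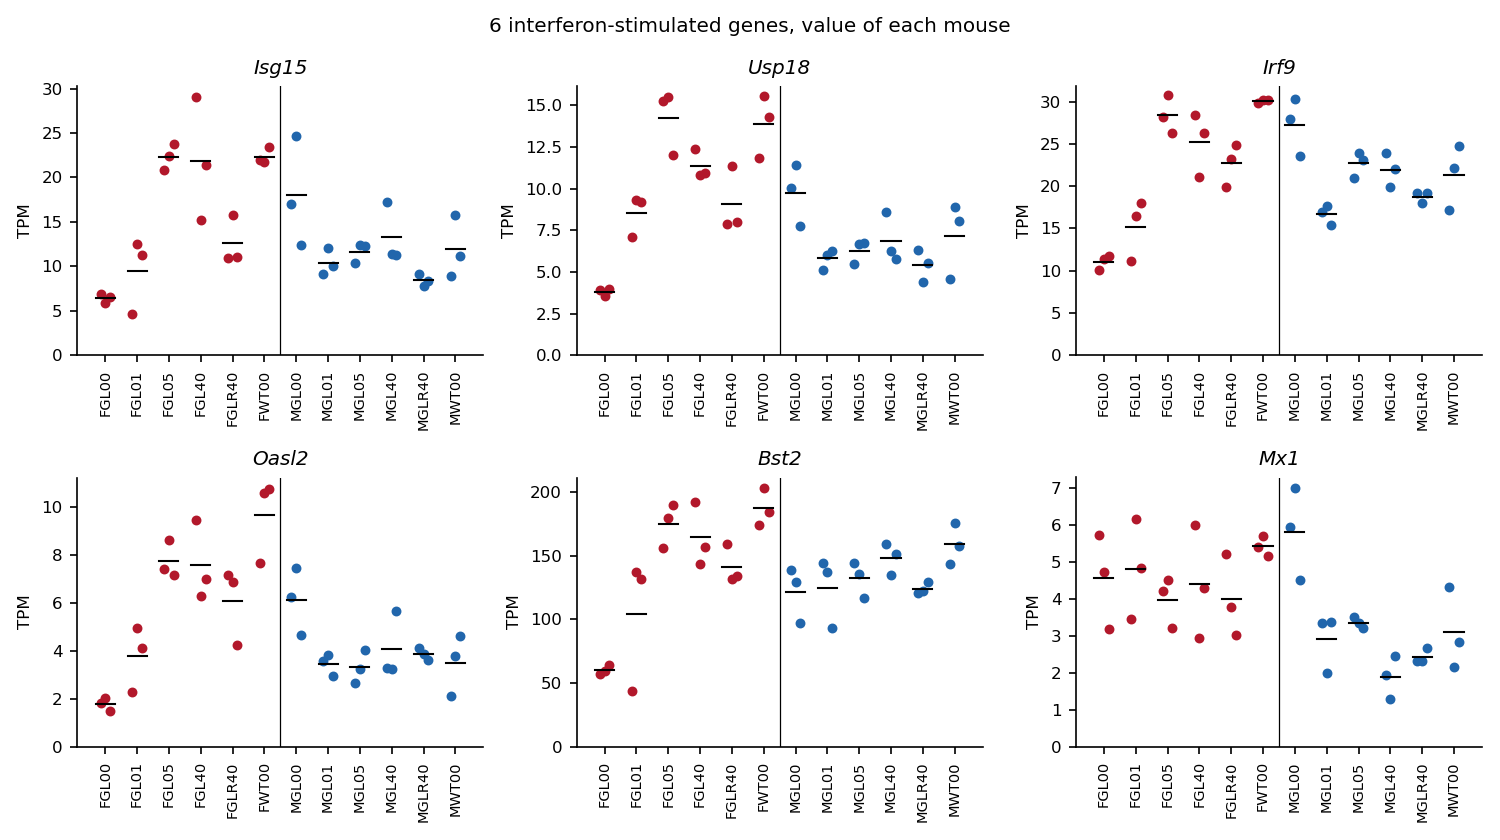
TPM of *Isg15*, *Usp18*, *Irf9*, *Oasl2*, *Bst2* and *Mx1* in each of the 36 mice (points; red, females; blue, males) by group, with the mean of each group as a black line and all axes starting at 0. For the first 5 genes the FGL00 mice are the lowest female group by mean, whereas MGL00 has the highest male mean for 5 of the 6 genes, *Bst2* being the exception.

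Lower levels were also seen in females on the lowest dose, but not on 0.05% ascorbate. In FGL01 over FGL40, 14 of the 32 members were lower and none higher (limma adjusted p under 0.05; 5.58% of all genes were called lower and 14.3% higher), with a median log2 fold change of -0.50, against 0.07 over all genes. Markers of other cells were higher in the same FGL01 livers, with 4 of 8 called for Kupffer cells and macrophages (summed 615 to 831 TPM in FGL01, against 468 to 519 TPM in FGL40). For B and plasma cells 4 of 6 were called (32 to 194 TPM in FGL01, against 12.6 to 18.1 TPM in FGL40). Also called were 2 of 8 for T and NK cells and 2 of 6 for plasmacytoid dendritic cells. The latter summed to 16.6 to 24.0 TPM in FGL01, against 10.8 to 151 TPM in FGL40, the 151 TPM in FGL40-2695. Endothelial sums (173 to 197 TPM in FGL01, 146 to 159 TPM in FGL40) were higher as well. So were sums for stellate cells and fibroblasts (230 to 268 TPM, against 189 to 200 TPM) and monocytes (60.1 to 83.8 TPM, against 47.0 to 54.0 TPM). Hepatocyte sums (72695 to 80381 TPM in FGL01, 79584 to 81939 TPM in FGL40) and cholangiocyte sums (23.8 to 41.9 TPM, against 39.8 to 49.7 TPM) overlapped, as did neutrophil and erythroid sums. Of 10 acute phase genes 5 were higher, and the part of these transcripts was not tested. *Ifi27*, *Isg15* and *Rtp4* led with log2 fold changes of -1.20, -1.18 and -1.09. *Isg15* had 4.65, 12.5 and 11.3 TPM in FGL01 mice, and *Bst2* 43.8, 137 and 131 TPM. FGL01-2722 was the lowest of its group for 26 of the 32 members and had a lower *Bst2* value than any FGL00 mouse. Without FGL01-2722, or without FGL40-2694, the highest of the FGL40 mice for 25 of the 32 members, 8 members were called, and with only the 2 groups in the model 4 were. In FGL05 over FGL40 no member was called (limma; 0% of all genes were called in either direction, and 0 members had an unadjusted p under 0.05), and the median log2 fold change was 0.07. *Isg15* had 20.8, 22.4 and 23.8 TPM in FGL05, within the range of FGL40.

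Over the 4 amounts of ascorbate, *Irf9* had means of 11.1 ± 0.834 TPM in FGL00, 15.2 ± 3.6 TPM in FGL01, 28.4 ± 2.28 TPM in FGL05 and 25.3 ± 3.82 TPM in FGL40 (SD, n = 3 each). *Usp18* had 3.80 ± 0.206 TPM in FGL00, 8.54 ± 1.26 TPM in FGL01, 14.3 ± 1.93 TPM in FGL05 and 11.4 ± 0.862 TPM in FGL40. The FGL05 and FGL40 means of *Irf9* differed by less than the SD of FGL40, and that of *Usp18* was higher in FGL05 without passing the test. Comparisons with FGL40 share the same 3 FGL40 mice.

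No member passed the test between wild type females and FGL40, whereas FGL00 lay below the wild type for nearly all of them. In FWT00 over FGL40 no member was called (limma; 0.183% of all genes called, 0 members with an unadjusted p under 0.05), and the median log2 fold change was 0.20. In FGL00 over FWT00, 30 members were lower and none higher (17.4% of all genes were called lower and 7.73% higher), with a median log2 fold change of -0.95, against -0.06 over all genes. *Mx1* and *Mx2* were again the members not called. *Irf9* had 10.1, 11.4 and 11.7 TPM in FGL00, against 29.8, 30.2 and 30.2 TPM in FWT00 (log2 fold change -1.37, adjusted p = 2.8e-05), and *Usp18* 3.90, 3.57 and 3.95 TPM in FGL00, against 11.9, 15.6 and 14.3 TPM in FWT00 (-1.63, adjusted p = 6.3e-06). For 30 members the groups did not overlap, with the FGL00 mice below (28.4% of all genes). This comparison shares its 3 FGL00 mice with that against FGL40.

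After ascorbate had been given back, 16 of the 32 members were higher than in FGL00. In FGLR40 over FGL00 these 16 members passed the test and none was lower (limma adjusted p under 0.05; 16.6% of all genes were called higher and 5.30% lower), with a median log2 fold change of 0.60, against 0.08 over all genes. *Oasl2* (1.33, SE 0.22), *Bst2* (1.21), *Rtp4* (1.06) and *Usp18* (1.06) had the largest. *Usp18* had 7.90, 11.4 and 8.0 TPM in FGLR40, all above the 3.57 to 3.95 TPM of FGL00. In FGLR40 over FGL40 no member passed the test (limma; 2.27% of all genes were called), although 31 of 32 log2 fold changes were negative, their median was -0.30 and 12 members had an unadjusted p under 0.05. *Isg15* had 10.9, 15.8 and 11.0 TPM in FGLR40, with 1 mouse inside the range of FGL40, and *Xaf1* had 8.27, 8.64 and 7.78 TPM, all below FGL40. With array weights 6 members were called lower in this comparison (*Ifit3*, *Isg15*, *Rtp4*, *Xaf1*, *Zbp1* and *Herc6*), with median-ratio scaling or a minimum of 1 TPM in 3 mice *Xaf1* alone, and without FGLR40-2717 *Herc6* alone.

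**Figure D4:**
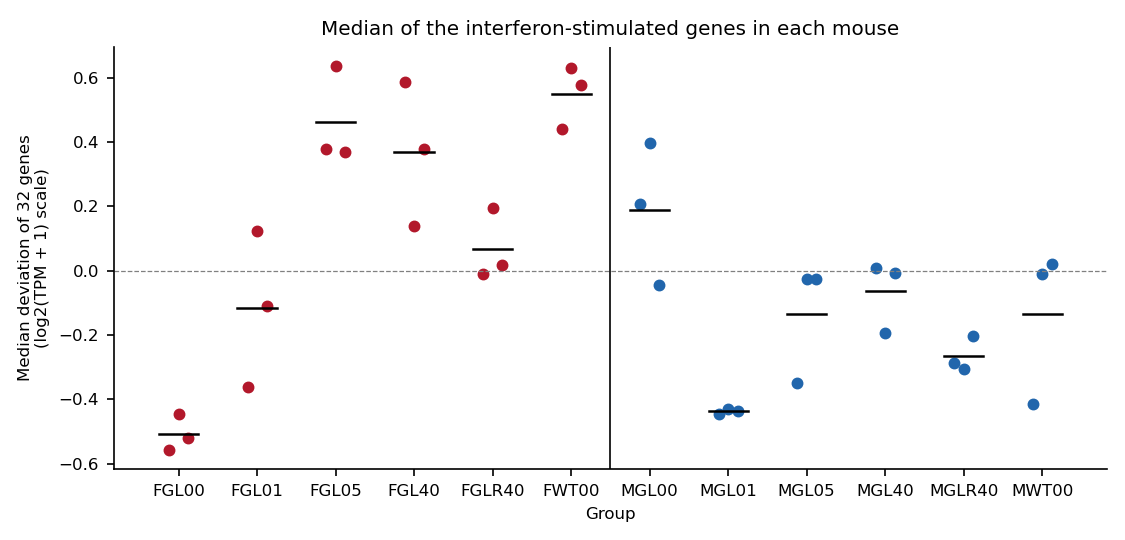
Median over the 32 genes of the deviation from the mean of all mice, on the log2(TPM + 1) scale, for each mouse (points; red, females; blue, males), with the group mean as a black line. FGL00 mice lie between -0.56 and -0.44 and FGL40 mice between 0.14 and 0.59, while MGL00 mice lie between -0.04 and 0.40 and MGL40 mice between -0.19 and 0.01.

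In males no member was called lower after the same withdrawal. In MGL00 over MGL40, 3 members were higher and none lower (limma adjusted p under 0.05 over 17661 genes), while 9.85% of all genes were called higher and 2.45% lower. The log2 fold changes of 28 of the 32 members were positive, with a median of 0.28, against 0.07 over all genes. This median was 0.14 without MGL00-2784, 0.40 without MGL00-2787 and 0.17 with median-ratio scaling. The 3 were *Mx1*, *Zbp1* and *Oas2*, of which *Mx1* and *Zbp1* had not passed in females. *Mx1* had 5.94, 6.99 and 4.50 TPM in MGL00 mice, against 1.94, 1.29 and 2.46 TPM in MGL40 mice (log2 fold change 1.24, SE 0.20, adjusted p = 0.0014). *Zbp1* had 10.2, 12.1 and 7.81 TPM in MGL00, against 5.62, 3.71 and 5.35 TPM in MGL40 (0.90, SE 0.20, adjusted p = 0.0096), and neither gene overlapped between the groups. *Oas2* (0.46, adjusted p = 0.049) lost its call under 9 of 15 alternatives. For 5 members every MGL00 mouse was above every MGL40 mouse, which held for 24.3% of all genes.

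The genes that had fallen most in females did not pass the test in males. *Isg15* had 17, 24.7 and 12.4 TPM in MGL00, against 17.2, 11.4 and 11.2 TPM in MGL40 (log2 fold change 0.39, SE 0.22, limma adjusted p = 0.28). *Usp18* had 10.05, 11.4 and 7.75 TPM in MGL00, against 8.57, 6.24 and 5.79 TPM in MGL40 (0.45, adjusted p = 0.16). *Oasl2* had 6.25, 7.46 and 4.65 TPM in MGL00, against 3.29, 3.25 and 5.65 TPM in MGL40 (0.51, adjusted p = 0.15). In each the groups overlapped through 1 mouse or more, and MGL00-2784 was the highest of its group. *Bst2* and *Ifi27* went the other way. *Bst2* had 139, 129 and 97.3 TPM in MGL00, against 159, 135 and 151 TPM in MGL40 (-0.30, adjusted p = 0.24), and *Ifi27* 64.3, 68.3 and 89.4 TPM in MGL00, against 102, 83.4 and 114 TPM in MGL40 (-0.43, adjusted p = 0.080). With median-ratio scaling the calls were 2 higher (*Mx1* and *Zbp1*) and 1 lower (*Ifi27*, log2 fold change -0.57, adjusted p = 0.032).

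**Figure D5:**
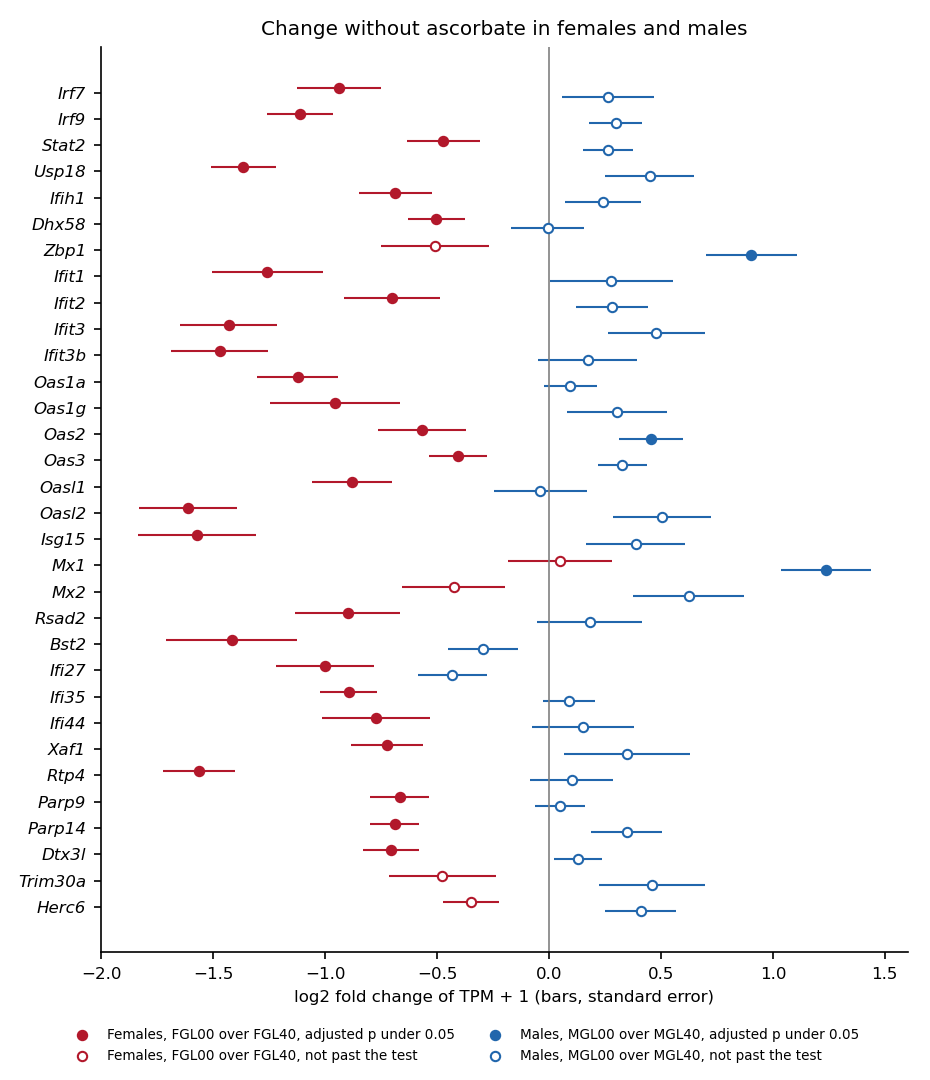
Log2 fold change of TPM + 1 (points, with the standard error as bars) for each of the 32 genes in FGL00 over FGL40 (red) and MGL00 over MGL40 (blue); filled points have an adjusted p under 0.05. All red points but that of *Mx1* lie left of 0 and 28 blue points lie right of it.

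The difference between the sexes was itself tested. The interaction of sex with GL00 over GL40 in the model of 36 mice was negative for all 32 members and passed the test for 28 (limma adjusted p under 0.05 over 17721 genes; 11.3% of all genes were called lower and 2.39% higher), with a median log2 value of -1.06, against -0.10 over all genes. *Oasl2* (-2.12, SE 0.32, adjusted p = 0.00010), *Isg15* (-1.96, SE 0.36, adjusted p = 0.00063), *Ifit3* (-1.91, SE 0.32, adjusted p = 0.00024) and *Usp18* (-1.81, SE 0.25, adjusted p = 5.2e-05) had the largest differences, and *Irf9* the smallest adjusted p (-1.41, SE 0.19, adjusted p = 3.7e-05). *Mx1* (-1.19, SE 0.32, adjusted p = 0.012) and *Zbp1* (-1.41, SE 0.33, adjusted p = 0.0043) were among the 28, and for both the males passed the test and the females did not. *Dhx58*, *Ifi27*, *Ifi44* and *Trim30a* did not pass. Median-ratio scaling gave 21 calls and leaving out 1 mouse 20 to 29, and the shares of all genes in these fits are not given here. For the lower dose, the interaction of sex with GL01 over GL40 passed for no member (limma; 1.56% of all genes called, 4 members with an unadjusted p under 0.05), and that with WT00 over GL40 for none either (0% called, 0 members with an unadjusted p under 0.05).

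Males on 0.01% ascorbate had values at the low end of the male range. In MGL01 over MGL40, 30 of 32 log2 fold changes were negative, with a median of -0.31, against 0.04 over all genes, and 2 members passed the test (limma; 1.46% of all genes were called lower and 1.96% higher). They were *Ifi27*, with 57.3, 64.7 and 43.7 TPM in MGL01, against 102, 83.4 and 114 TPM in MGL40 (-0.85, adjusted p = 0.0088), and *Dhx58* (-0.62, adjusted p = 0.049). For 14 members every MGL01 mouse was below every MGL40 mouse (7.36% of all genes). Depending on the setting, 0 to 6 members were called, with 1 in 5 of the 6 fits that left out a mouse of these groups (all but MGL40-2691). In MGL05 over MGL40 (0.0566% of all genes called), MGLR40 over MGL40 (0.00566%) and MWT00 over MGL40 (0.453%), limma called no member, and 1, 3 and 2 members had an unadjusted p under 0.05.

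MGL00 was the highest male group by the median over the members, and levels were lower in the males that had received ascorbate again. Whether this differed between the sexes was not tested. In MGLR40 over MGL00, 10 members were lower and none higher (limma; 6.15% of all genes were called lower and 2.98% higher), with a median log2 fold change of -0.46, against -0.04 over all genes. *Zbp1* had 3.54, 2.95 and 4.48 TPM in MGLR40, against 10.2, 12.1 and 7.81 TPM in MGL00 (-1.24, adjusted p = 0.0019), and *Isg15* 9.11, 7.81 and 8.30 TPM in MGLR40, against 17, 24.7 and 12.4 TPM in MGL00 (-0.97, adjusted p = 0.014). For 21 members the MGLR40 mice lay below all MGL00 mice (21.0% of all genes). The count of 10 rested on few mice. Without MGL00-2784 or MGLR40-2829, 2 members were called, without MGL00-2783 or MGLR40-2831 5, and without MGLR40-2828 6. The shares of all genes in these fits are not given. In MGL00 over MWT00, *Mx1* (0.75) and *Zbp1* (0.74) were called higher (6.72% of all genes) and *Ifi27* (-0.64) lower (4.04% of all genes), while 0 members were called without MGL00-2784, 1 without MGL00-2783 and 8 without MGL00-2787.

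Over all treatments, females had higher levels of part of the set. In a model of sex and treatment, 21 members were higher in females and none lower (limma; 36.8% of all 17721 genes were called higher and 7.41% lower), with a median log2 fold change of 0.33, against 0.07 over all genes. *Xaf1* had the largest (0.62, adjusted p = 0.00017), followed by *Ifit3* (0.56) and *Trim30a* (0.54). With median-ratio scaling 10 members were called, and the share of all genes called with that scaling is not given here. The median log2 fold change was then 0.20 for the members, against 0.01 over all genes. By group, *Xaf1* had 14, 10.1 and 15.1 TPM in FGL40, against 7.37, 7.28 and 8.42 TPM in MGL40, and 13.9, 13.7 and 15.2 TPM in FWT00, against 3.97, 5.39 and 9.90 TPM in MWT00. Neither pair overlapped. In GL00 the order of the sexes was the reverse. All 32 members had a lower mean in FGL00 than in MGL00. The share of all genes with this order was not computed, and FGL00 was not compared with MGL00 by a test. *Isg15*, for example, had at most 6.92 TPM in FGL00 and at least 12.4 TPM in MGL00.

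The members varied together from mouse to mouse. With each sex centred on its own mean, the Pearson correlation of a member with the median of the other members over 36 mice had a median of 0.84 and ranged from 0.26 (*Mx1*) to 0.95 (*Irf9*). With each group centred on its own mean it ranged from 0.26 to 0.90 with a median of 0.71, so that mice of 1 group with a high value of one member tended to have high values of the others. The values of a mouse share a library, and these correlations are descriptions. Among all other genes, those most correlated with the member median included *Irgm1* (0.94), *Rnf213* (0.94), *Irgm2* (0.91), *Parp10*, *Samd9l*, *Trim34a*, *Gbp7*, *Cnot8* and *Gbp3* (0.89 each).

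Other parts of the pathway were read from lists of named genes. Of 12 interferon genes only *Ifnk* and *Ifng* were above 0 TPM in enough females to be tested, and limma called neither (0 with an unadjusted p under 0.05). *Ifnk* reached at most 0.714 TPM and *Ifng* 0.278 TPM in any mouse, *Ifnb1* was above 0 in 3 of 36 mice (at most 0.0909 TPM), and 6 of the 12 were listed at 0 in every mouse. The receptor chains did not pass the test, with log2 fold changes in FGL00 over FGL40 of 0.13 for *Ifnar1* (SE 0.08, limma adjusted p = 0.28) and -0.06 for *Ifnar2* (SE 0.08, adjusted p = 0.64). Of the 8 receptors and kinases, *Tyk2* fell (-0.64, adjusted p = 0.00083) and *Ifngr1* rose (0.32, adjusted p = 0.030), while 13.7% of all genes were called lower and 9.56% higher.

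Among the transcription factors and inhibitors, *Irf2* (log2 fold change -0.94, limma adjusted p = 0.00013) and *Irf3* (-0.85, adjusted p = 0.00015) were lower in FGL00 than in FGL40, and *Stat3* (1.09), *Socs3* (1.95) and *Irf8* (0.71) were higher. *Stat3* and *Socs3* belong to the signalling of interleukin 6, and in males too they were higher in MGL00 (1.26 and 1.04). *Mavs*, the adaptor of the RNA sensors on mitochondria, had 17.1, 20.4 and 17.4 TPM in FGL00, against 41.2, 39.7 and 36.3 TPM in FGL40 (-1.06, SE 0.10, adjusted p = 1.1e-05), and 41.7, 44.5 and 44.7 TPM in MGL00, against 44.4, 38.9 and 39.9 TPM in MGL40 (0.09, adjusted p = 0.56). The interaction with sex passed for *Mavs* (-1.14), *Irf2* (-1.11) and *Irf3* (-0.84). Of 13 upstream sensors and adaptors, *Mavs*, *Ddx58* (RIG-I), *Ticam1* and *Ikbke* were lower in FGL00 and *Tbk1* was higher (13.7% of all genes were called lower and 9.56% higher).

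Interferon-inducible genes outside the 32 were read from further lists. Of 20 further interferon-stimulated genes, 9 were lower in FGL00 than in FGL40 and 1 was higher, with *Cmpk2* at -1.29 (limma adjusted p = 0.0028) and *Ifi27l2b* at 1.38 (adjusted p = 0.010). Of all genes, 13.7% were called lower and 9.56% higher in that comparison. In males 19 of the 20 were tested and 4 were higher in MGL00, namely *Samd9l*, *Sp100*, *Ifitm3* and *Ifi204*, against 9.85% of all genes called higher. Of 13 immunity-related and guanylate-binding GTPases and chemokines, many of them also targets of interferon gamma, 8 were lower in FGL00 and none higher, among them *Irgm2* (-1.44, adjusted p = 0.00014), *Igtp* (-1.46, adjusted p = 0.0028) and *Gbp7* (-1.01, adjusted p = 0.0030). In MGL00 over MGL40 limma called none of the 13, and 1 had an unadjusted p under 0.05. The chemokine *Cxcl10* was not called in either sex.

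Other transcripts moved in the same livers. Of all genes, limma called 9.56% higher and 13.7% lower in FGL00 over FGL40. In MGL00 over MGL40 it called 9.85% higher and 2.45% lower. A count of 1 or 2 calls in the short lists below is not read as a result. Of 10 acute phase genes, 9 were higher in FGL00 than in FGL40 and 10 higher in MGL00 than in MGL40, with *Saa1* at 1998, 2637 and 6834 TPM in FGL00, against 72.5, 39.7 and 52.8 TPM in FGL40. Summed neutrophil markers were 43.0 to 88.6 TPM in FGL00, against 11.4 to 13.4 TPM in FGL40, and 4 of the 5 tested were higher. Summed erythroid markers were 1931 to 3426 TPM in FGL00, against 627 to 753 TPM in FGL40, and all 4 tested were higher. Monocyte markers summed to 42.9 to 73.4 TPM in FGL00, against 47.0 to 54.0 TPM in FGL40, and to 41.7 to 50.3 TPM in MGL00, against 25.1 to 35.8 TPM in MGL40, with 3 of 5 called higher in each sex. Of the other lists, Kupffer cell and macrophage markers summed to 443 to 710 TPM in FGL00, against 468 to 519 TPM in FGL40 (0 of 8 called by limma, 3 with an unadjusted p under 0.05), and T and NK cell markers to 4.56 to 9.90 TPM in FGL00, against 5.55 to 7.18 TPM in FGL40 (0 of 8 called, 0 with an unadjusted p under 0.05). In males, Kupffer cell and macrophage markers summed to 398 to 484 TPM in MGL00, against 254 to 333 TPM in MGL40, and 6 of 8 were higher. Male hepatocyte sums were 75819 to 80101 TPM in MGL00, against 60019 to 69723 TPM in MGL40 (1 of 5 called). Endothelial sums were 125 to 149 TPM in MGL00, against 87.5 to 124 TPM in MGL40 (2 of 6 called). Neutrophil sums were 9.83 to 20.9 TPM in MGL00, against 3.96 to 9.23 TPM in MGL40 (0 of 5 called by limma, 3 with an unadjusted p under 0.05). Male erythroid sums overlapped. Plasmacytoid dendritic cell markers, those of a main producer of interferon alpha, summed to 12.3 to 15.6 TPM in FGL00, against 10.8 to 151 TPM in FGL40 (1 of 6 called higher). The 151 TPM belonged to FGL40-2695, the liver with summed exocrine pancreas transcripts of 11605 TPM, and the other FGL40 mice had 10.8 and 12.1 TPM. Whether pancreas RNA contributed to the 151 TPM was not tested. Hepatocyte markers summed to 76777 to 91858 TPM in FGL00, against 79584 to 81939 TPM in FGL40 (2 of 5 called higher). Endothelial markers summed to 72.2 TPM in FGL00-2788 and 136 and 160 TPM in the other FGL00 mice, against 146 to 159 TPM in FGL40. Of these 6 markers 2 were called, in directions not given here. B and plasma cell markers summed to 22.8 to 28.3 TPM in FGL00, against 12.6 to 18.1 TPM in FGL40 (0 of 6 called). FGL00-2788 had the lowest sum of its group for Kupffer cells and macrophages (443 TPM), monocytes (42.9 TPM), neutrophils (43.0 TPM) and endothelium (72.2 TPM). The part of these transcripts in the values of the interferon-stimulated genes was not tested.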

How the data were processed

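Poly(A) RNA purified from total RNA of whole liver was made into 1 directional library for each of 36 mice. The authors trimmed reads with fastp (0.20.0) and quantified transcripts with kallisto (0.46.2) against an Ensembl mouse transcriptome, and deposited TPM values per gene, which sum to 1000000 in each mouse. How transcripts were summed to genes is not given in the sources used here, and since TPM keeps no read depth, the depth of each sample is unknown and no counting interval is given. A rise of very abundant transcripts lowers the TPM of all others, which median-ratio scaling and a table without the 22 Mup genes were used to check. Groups came from the sample labels. The members and lists were chosen with earlier results of these data known.

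Values were analysed as log2(TPM + 1), so that fold changes of low genes are understated. For each sex, limma (3.58.1, R 4.3.3, trend and robust options) was fitted with 1 mean for each group of 3 mice to genes above 0 TPM in at least 13 of 18 mice (70%). Females over males (sex and treatment as terms) and the interactions of sex with treatment were fitted to all 36 mice and genes above 0 TPM in at least 26. P-values were two-sided and adjusted over all genes tested by the Benjamini-Hochberg method, with calls at an adjusted p under 0.05. The members named with values are the 14 with the smallest adjusted p and the 4 with the highest mean TPM (*Parp9* is in both); *Mx1*, *Mx2*, *Zbp1*, *Oas2*, *Dhx58*, *Trim30a*, *Herc6* and other members outside these were named after their values were seen. All 32 members passed the filters. The limma fit in females for FGL00 over FGL40 was repeated on simulated data, and the other steps were not tried in this way. Promoter windows and their motifs were read from RefSeq (GRCm38.p6). Alternatives were other pseudocounts (0.1 and 5), no filter, a minimum of 1 TPM in 3 mice, median-ratio scaling and omission of the Mup genes. Further alternatives were array weights, no robust option, only the compared groups and leaving out each mouse. A last one required a ratio of mean TPM above 2 in either direction on top of the test. One gene of the pathway lists is not reported here.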

Additional observations from a re-analysis of the deposited data

Results flagged for a closer look

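The change in GL00 over GL40 differed between the sexes for 28 of the 32 members by the interaction test in limma (adjusted p under 0.05 over 17721 genes), with each value the log2 fold change in females minus that in males. For the factors and regulators the differences were -1.20 for *Irf7*, -1.41 for *Irf9*, -0.74 for *Stat2* and -1.81 for *Usp18*. For the sensors they were -0.93 for *Ifih1* and -1.41 for *Zbp1*. For the IFIT genes they were -1.54 for *Ifit1*, -0.98 for *Ifit2*, -1.91 for *Ifit3* and -1.64 for *Ifit3b*. For the OAS genes they were -1.22 for *Oas1a*, -1.26 for *Oas1g*, -1.02 for *Oas2*, -0.73 for *Oas3*, -0.84 for *Oasl1* and -2.12 for *Oasl2*. For the other effectors they were -1.96 for *Isg15*, -1.19 for *Mx1*, -1.05 for *Mx2*, -1.08 for *Rsad2*, -1.12 for *Bst2*, -0.98 for *Ifi35*, -1.07 for *Xaf1* and -1.67 for *Rtp4*. For the ubiquitin and ADP-ribose enzymes they were -0.72 for *Parp9*, -1.04 for *Parp14*, -0.84 for *Dtx3l* and -0.76 for *Herc6*. Groups of 3 mice are too small to test for single outlying animals.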

How the results depend on the processing

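Of the members called in a comparison, 2752 combinations of gene and alternative kept the call, 328 lost it and 0 changed sign. When a ratio of mean TPM above 2 in either direction was required on top of the test, 16 members passed in FGL00 over FGL40. Under this rule 7 passed in FGL01 over FGL40, 7 in FGLR40 over FGL00 and 3 in MGLR40 over MGL00. In MGL01 over MGL40, MGL00 over MWT00 and females over males 0 passed. With only the compared groups in the model, 4 were called in FGL01 over FGL40, 0 in MGL01 over MGL40, 6 in MGLR40 over MGL00 and 1 in MGL00 over MWT00, where the balance of the calls turned to lower (*Ifi27*). With median-ratio scaling there was 1 call in FGLR40 over FGL40, 6 in MGLR40 over MGL00 and 10 in females over males. With at least 1 TPM in 3 mice there was 1 in FGLR40 over FGL40 and 6 in MGL00 over MWT00. With array weights there were 6 in FGLR40 over FGL40, 5 in MGL00 over MGL40 and 7 in MGL00 over MWT00. Without Mup genes there were 6 in MGL01 over MGL40 (median log2 fold change -0.42) and 6 in MGLR40 over MGL00. In MGL01 over MGL40 there was 1 call each with a pseudocount of 5, no filter or no robust option. The cause of these shifts was not tested. The shares of all genes called under the alternatives, or with 1 mouse left out, are not given, so these counts of members cannot be set against them.

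Leaving out 1 mouse gave 20 to 26 calls in FGL00 over FGL40, 8 to 17 in FGL01 over FGL40, 0 to 1 in FGLR40 over FGL40, 11 to 13 in FGLR40 over FGL00, 25 to 30 in FGL00 over FWT00, 2 to 4 in MGL00 over MGL40, 1 to 2 in MGL01 over MGL40, 2 to 10 in MGLR40 over MGL00, 0 to 8 in MGL00 over MWT00, 19 to 23 in females over males and 20 to 29 for the interaction of sex with GL00 over GL40. In every other comparison 0 were called throughout. No paired analysis was possible because the groups share no animal numbers. Over the same omissions the median log2 fold change of the members ranged from -0.89 to -0.71 in FGL00 over FGL40, from -0.60 to -0.39 in FGL01 over FGL40 and from 0.14 to 0.40 in MGL00 over MGL40. The read depth of each single mouse is unknown, which leaves the counting error of low values unknown.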
